A study of Mus musculus with 16 samples.

Results

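The regions described here are the stretches of the mouse genome at which trimethylation of lysine 4 on histone H3 (H3K4me3) was called in macrophages at 4 days post injury (dpi) and not at 2 dpi. Peaks of the 4 H3K4me3 libraries were merged wherever they shared at least 1 bp, on chromosomes 1 to 19, X and Y, and a merged region counted as gained when both 4 dpi libraries and neither 2 dpi library had a peak in it. This gave 1026 gained regions among 19426 merged H3K4me3 regions, or 5.28%. By the opposite rule 250 regions were lost by 4 dpi, and 13298 regions were called in all 4 libraries and are termed shared regions below. The gained regions were chosen by presence or absence of a called peak in these 4 lists, so their number and their H3K4me3 values are a description without a test, and tests were kept for the other 3 marks.

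The macrophages came from C57BL6J wild type male mice, 8 to 12 weeks old, whose femoral artery had been ligated to induce hind limb ischemia. CD45+CD11b+F4/80+CD64+ cells were sorted from calf muscle of the ischemic limb at 4 or 2 dpi, with no uninjured or sham group in this series. Nuclei were profiled by CUT&Tag, in which a transposase tethered through an antibody cuts and tags the DNA next to a histone mark for sequencing. Each of the marks H3K4me3, H3K18la, H3K27ac and H3K27me3 had 2 libraries at 4 dpi and 2 at 2 dpi, which made 16 libraries.

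H3K4me3 is placed mainly around the start sites of active or poised genes by methyltransferase complexes that recognise unmethylated CpG-rich DNA. H3K27ac, written by p300 and CBP, marks active promoters and enhancers, and lactylation of lysine 18 (H3K18la) uses a lactyl group that derives from lactate, the end product of glycolysis. H3K27me3 is the repressive mark of Polycomb complex PRC2, and promoters that carry it together with H3K4me3 are called bivalent. In injured muscle, macrophages pass from an inflammatory to a restorative state in the days after damage, and this was the transition that the comparison of time points addressed.

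The 4 H3K4me3 lists were of similar length, with 18413 and 16446 peaks at 4 dpi and 16962 and 16612 peaks at 2 dpi. The median total signal of a listed peak, which is not normalized, was 118913 and 60650 at 4 dpi, against 63030 and 77452 at 2 dpi, so the 4 dpi libraries were the highest and the lowest of the 4. One H3K27ac library stood apart: the list of 4 dpi replicate 1 covered 205 Mb, against 64.7 Mb in 4 dpi replicate 2 and 65.3 and 37.8 Mb at 2 dpi, and its library name in the labels carries another series prefix than those of the other 3. Several results on H3K27ac, though not all, are therefore also given without it. The labels do not say whether replicates came from separate mice, so the p-values measure only the spread between these libraries, and read counts were not used here, so that sequencing depth is unknown. No annotation of the coordinate build was at hand, so regions are given by position and no gene is named.

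Gained H3K4me3 regions were narrow and weak relative to shared ones. Their merged width had a median of 1979.5 bp (quartiles 1643.5 and 2426.5, range 768 to 10160), compared with 1780 bp for lost regions and 3076 bp for shared regions. The called width within a library had a median of 1890.5 bp in 4 dpi replicate 1 and 1459 bp in replicate 2, which averaged 1675 ± 305 bp (SD, n = 2, over the same regions). The peak of replicate 1 was the wider one at 829 of the 1026 regions. At 1016 regions each 4 dpi library had a single peak.

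Strength was expressed as the percentile of a peak's total signal among all peaks of its own list, since the deposited signal was not normalized between libraries. The median percentile of gained regions was 19.2 in 4 dpi replicate 1 and 12.2 in replicate 2, whereas shared regions had medians of 63.7 and 59.1 in the same lists. By maximum signal the medians of gained regions were 20.9 and 15.1. Lost regions occupied the same low range of the lists they were called in, with medians of 12.4 and 12.8 at 2 dpi. Gained regions were thus drawn from the lower part of both 4 dpi lists.

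**Figure D1:**
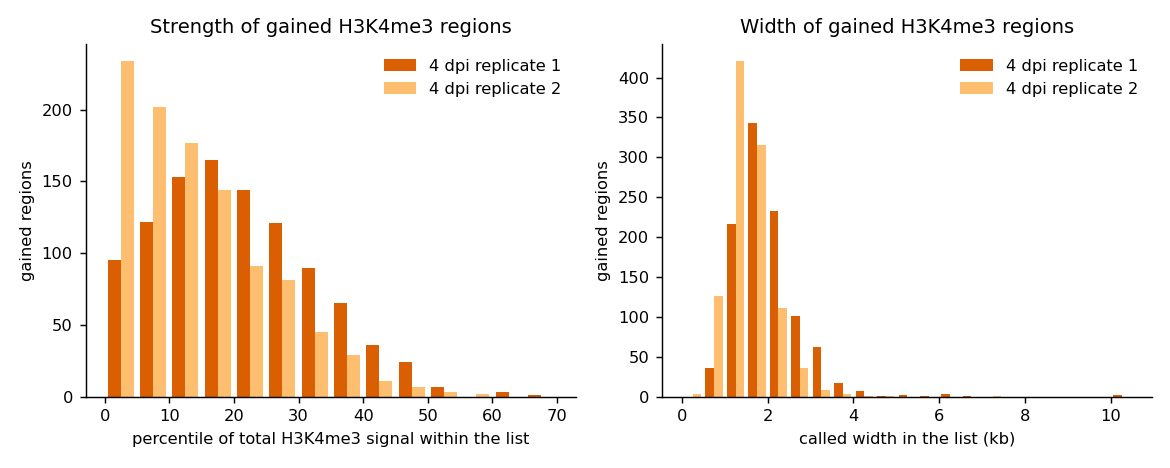
Number of gained H3K4me3 regions (y axis) by percentile of total signal within the list (left) and by called width in kb (right), for 4 dpi replicate 1 (dark) and replicate 2 (light). Most regions lie in the lower part of both lists, with medians of 19.2 and 12.2, and the few widths near 10 kb belong to replicate 1.

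How far the regions lay above the lowest peak that each list kept bears on how firmly presence and absence can be read. Total signal was a median of 1.66 times that of the weakest listed peak in 4 dpi replicate 1 and 1.31 times in replicate 2, and it was under 2 times at 706 and 921 regions. Shared regions had medians of 5.98 and 4.16 times. At 511 regions (49.8%) the lower of both percentiles was under 10, at 135 regions both percentiles exceeded 25, and at 1 region both exceeded 50. The weakest member, on chromosome 5 from 125434688 to 125435941, stood at percentiles 0.136 and 0.784. Just outside the rule were 1136 regions called in both 4 dpi libraries and 1 of the 2 dpi libraries, whose 2 dpi peak had a median percentile of 12.1. The closest of these, on chromosome 9 from 21872602 to 21875076, had percentiles of 37.3 and 20.9 at 4 dpi and was kept out by a peak at percentile 0.0181 in 2 dpi replicate 2. Each library adds a condition to the rule, so leaving one out can only raise the number gained. It was 1573 without 2 dpi replicate 1, 1619 without 2 dpi replicate 2, 1298 without 4 dpi replicate 1 and 2502 without 4 dpi replicate 2. All 1026 regions were kept each time.

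The strongest gained region by mean percentile lay on chromosome 15 from 81612428 to 81615004 (2577 bp), at percentiles 53.8 and 52.7 of the 4 dpi lists, 62938 bp from the nearest 2 dpi H3K4me3 peak. H3K27ac was called over it in all 4 libraries. The next, on chromosome 4 from 141344262 to 141347001, reached percentiles 48.8 and 55.8, and the one on chromosome 11 from 100858786 to 100862176 reached 47.2 and 56.9. The other marks differed among them: the region on chromosome 11 was called in H3K27me3 in all 4 libraries and in H3K27ac only in 4 dpi replicate 1. A region on chromosome 10 from 99850538 to 99854129, at percentiles 52.9 and 47.1, was called in H3K27me3 in all 4 libraries and in no H3K27ac or H3K18la library. One on chromosome 9 from 57372618 to 57375998, at percentiles 53.6 and 45.6, had H3K27ac peaks in both 4 dpi libraries and in neither 2 dpi library. None of the 10 strongest regions was called in H3K18la in all 4 libraries. Among all 1026 gained regions 137 were (13.4%), so 10 regions are too few to read this as a trait.

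Most gained regions lay 10 kb or more from the nearest older H3K4me3 peak, a spacing not wider than that among shared regions. The median edge-to-edge distance to the nearest peak of either 2 dpi list was 14996.5 bp (quartiles 4780.75 and 40372.5), and the medians per 4 dpi library averaged 15102 ± 83.8 bp (SD, n = 2). Both medians are over the same 1026 regions, so this SD reflects only where the peak edges fell. Regions selected with 4 dpi replicate 1 alone had a median of 14896 bp, and those with replicate 2 alone 13380 bp. To the nearest region called in both 2 dpi libraries the median was 19028 bp, compared with 22827 bp from a shared region to the nearest other shared region. Of the 1026 regions, 101 (9.84%) lay under 1 kb from an older peak, 296 (28.8%) at 1 to 10 kb, 565 (55.1%) at 10 to 100 kb and 64 (6.24%) beyond 100 kb. Lost regions, measured to the nearest 4 dpi peak, had a median of 18749.5 bp, with a smaller share at 10 to 100 kb (40.8%) and a larger one beyond 100 kb (18%). The nearest older region was one called in all 4 libraries for 822 gained regions (80.1%), much like the share of such regions among all older regions (80.3%).

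**Figure D2:**
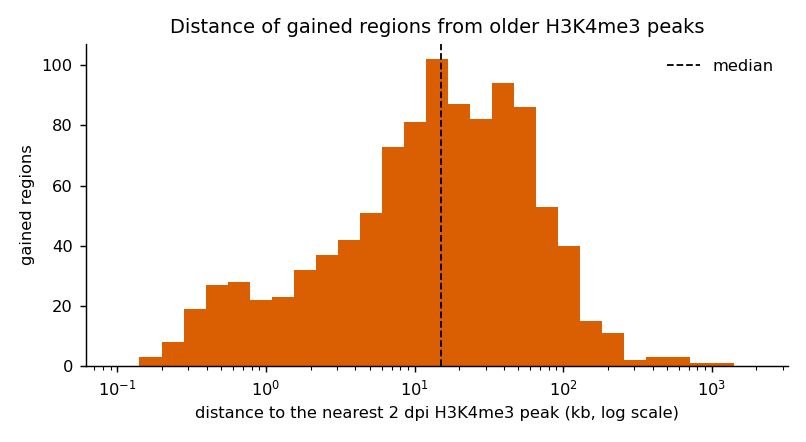
Number of gained H3K4me3 regions (y axis) by distance in kb, on a log scale, to the nearest H3K4me3 peak of either 2 dpi library. The dashed line is the median of 14996.5 bp, and a smaller shoulder under 1 kb holds 101 regions.

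The nearest pair was 175 bp apart, at a gained region on chromosome 11 from 33957954 to 33959242. The farthest gained region lay on chromosome 1 from 142515919 to 142517465, 1059474 bp from any 2 dpi peak, and was called in none of the 12 libraries of the other marks. The next, on chromosome 14 from 22850468 to 22852330, lay 778983 bp from one and was called in H3K18la in all 4 libraries. Width and strength hardly followed distance: the median width was 1617 bp under 1 kb, 2107 bp at 1 to 10 kb, 1979 bp at 10 to 100 kb and 2010 bp beyond 100 kb, with median percentiles of 16.6 to 20.6 in 4 dpi replicate 1.

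Gained regions made up 3.09% of the H3K4me3 regions of chromosome 3 and 8.64% of those of chromosome 11, against 5.28% over all chromosomes. Chromosome 11 held 119 gained and 4 lost regions among 1378, and chromosome 19, where 7.65% were gained, held 50 gained and 4 lost among 654. Chromosome Y had 0 gained and 2 lost among 20. When gained regions with gaps of at most 50 kb were joined, 818 stood alone, 89 groups held 2, 6 groups held 3 and 3 groups held 4. The groups of 4 spanned positions 117714294 to 117765197 on chromosome 11, 80278001 to 80338220 on chromosome 7 and 124269149 to 124350559 on chromosome 8.

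The other marks were less often called at gained regions than at H3K4me3 regions at large, except for H3K27me3, which was called more often. H3K27ac peaks met 60.8% and 54.3% of gained regions in the 4 dpi libraries and 56.3% and 39.5% in the 2 dpi libraries. H3K18la peaks met 20.9% and 24.5% at 4 dpi, against 29.2% and 16.5% at 2 dpi. H3K27me3 peaks met 22.3% and 22.6% at 4 dpi, against 22.0% and 20.3% at 2 dpi. Over all H3K4me3 regions the H3K27ac shares were 83.1% and 79.1% at 4 dpi and 80.5% and 69.7% at 2 dpi, the H3K18la shares 41.1% and 44.7% at 4 dpi and 58.3% and 37.7% at 2 dpi, and the H3K27me3 shares 15.1% and 15.4% at 4 dpi and 14.8% and 13.2% at 2 dpi. In each of the 12 libraries the share at gained regions was therefore on the same side of the share over all regions for its mark. This difference within libraries carries no test. Of the 19426 regions 13298 were shared ones, so the shares over all regions lean toward these. Regions called in other combinations of the 4 lists were not set apart. The H3K27me3 excess therefore cannot be called particular to gained regions. Gained regions were also narrower than H3K4me3 regions at large. Among the 513 gained regions above the median width, H3K27ac peaks met 64.5% and 55.4% at 4 dpi and 57.3% and 39.4% at 2 dpi, H3K18la peaks 21.1% and 24.4% at 4 dpi and 28.5% and 17.9% at 2 dpi, and H3K27me3 peaks 28.1% and 29.0% at 4 dpi and 28.1% and 25.9% at 2 dpi.

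**Figure D3:**
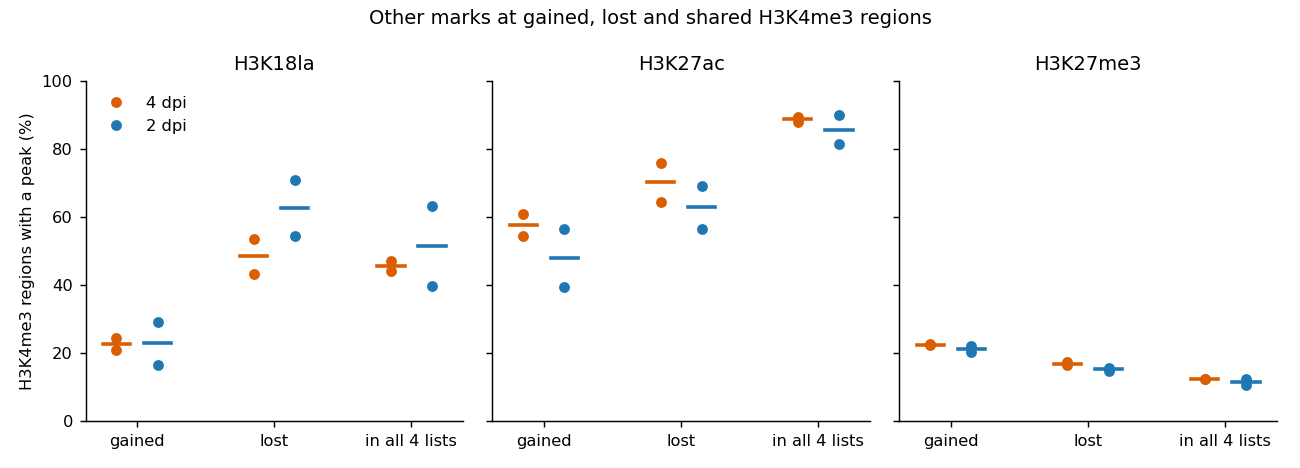
Share of H3K4me3 regions with a peak of H3K18la, H3K27ac or H3K27me3 (y axis, %) among gained, lost and shared regions. Points are single libraries, bars the mean of 2 libraries, orange 4 dpi and blue 2 dpi. Gained regions are lowest for H3K18la and H3K27ac and highest for H3K27me3, at 20.3% to 22.6%.

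Between time points no difference in these shares could be called, since with 2 libraries against 2 the smallest p that can be reached is 0.333. The difference, 4 minus 2 dpi, was 9.65 percentage points for H3K27ac (mean 57.6 ± 4.62% at 4 dpi and 47.9 ± 11.9% at 2 dpi, SD, n = 2 each; two-sided exact permutation p = 0.667). It was -0.19 points for H3K18la (22.7 ± 2.55% at 4 dpi and 22.9 ± 9.03% at 2 dpi, n = 2 each; exact p = 1) and 1.32 points for H3K27me3 (22.5 ± 0.207% at 4 dpi and 21.2 ± 1.24% at 2 dpi, n = 2 each; exact p = 0.333).  For H3K27me3 both 4 dpi libraries lay above both 2 dpi libraries, as they also did over all H3K4me3 regions, where the difference was 1.27 points. The H3K27me3 lists were longer at 4 dpi, with 14791 and 14836 peaks, against 12225 and 12060 at 2 dpi. With lists of equal length the H3K27me3 difference was 0.54 points, and the time points no longer separated. For H3K18la the sign was not stable and turned positive without 2 dpi replicate 1 (6.19 points) and without 4 dpi replicate 1 (1.61 points). For H3K27ac the shares overlapped between time points, and without 4 dpi replicate 1 the remaining 4 dpi value of 54.3% lay between both 2 dpi values.

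Much of the H3K27ac at gained regions was already present at 2 dpi. It was called in all 4 libraries at 291 gained regions (28.4%, against 63.6% of all H3K4me3 regions), in both 4 dpi libraries at 478 (46.6%, against 75.1%) and in both 2 dpi libraries at 360 (35.1%, against 67.6%). No H3K27ac library had a peak at 249 regions (24.3%, against 10.4%). H3K27ac was itself gained, with peaks in both 4 dpi and neither 2 dpi library, at 61 regions (5.95%, against 2.47% of all H3K4me3 regions), and it was lost by the opposite rule at 17 (1.66%, against 0.546%). Without 4 dpi replicate 1 these numbers were 80 gained (7.80%, against 3.29%) and 37 lost (3.61%, against 2.16%), an alternative added after the lists had been examined. The share with H3K27ac gained was above its background with and without that library, as was the share with H3K27ac lost. Shared regions make up most of that background, and with all libraries H3K27ac was gained at 1.33% and lost at 0.496% of them. Regions called in other combinations of the H3K4me3 lists were not set apart. Neither share can therefore be called particular to gained regions.

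Where H3K27ac was present at gained regions, its peaks were of middling strength within their lists. The median percentile of the strongest H3K27ac peak met was 66.9 and 51.1 at 4 dpi, against 45.6 and 44.6 at 2 dpi (exact p = 0.333, n = 2 each, the smallest possible). At shared regions the medians were 76.8 and 75.2 at 4 dpi and 75.5 and 72.5 at 2 dpi. The H3K27ac lists differed in length, with 35971 and 31487 peaks at 4 dpi and 29872 and 24976 at 2 dpi, and each median is over the regions met in that library, so the part of list length in these percentiles was not tested. H3K27ac covered 58.5% and 37.5% of the bases of gained regions at 4 dpi and 38.3% and 21.0% at 2 dpi, so that by length the value of 4 dpi replicate 2 lay between the 2 dpi values and the highest was that of the library with the widest peaks. Beside the strong region on chromosome 9 described above, those with H3K27ac gained included one at H3K4me3 percentiles 46.6 and 33.9, on chromosome 19 from 34546892 to 34549311. The opposite was seen on the X chromosome from 47551104 to 47553117, where H3K4me3 stood at percentiles 47.8 and 39.4 at 4 dpi and H3K27ac was called in both 2 dpi and neither 4 dpi library.

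H3K18la was rare at gained regions. It was called in all 4 libraries at 137 of them (13.4%, against 30.6% of all H3K4me3 regions), in both 4 dpi libraries at 181 (17.6%, against 35.7%) and in both 2 dpi libraries at 161 (15.7%, against 36.9%), and in no library at 670 (65.3%, against 37.3%). H3K18la was gained at 8 regions (0.780%, against 0.649%) and lost at 8 (0.780%, against 1.81%). Its peaks went with weaker H3K4me3: among the 513 gained regions below the median in mean H3K4me3 percentile 27.9% and 32.9% were met at 4 dpi and 37.4% and 21.8% at 2 dpi, whereas among the 513 above it 13.8% and 15.98% were met at 4 dpi and 21.1% and 11.1% at 2 dpi. The weaker members were thus the more often lactylated in each of the 4 libraries. For H3K27ac the mean share over the 4 libraries was 52.5% at the weaker and 53.0% at the stronger members, but the libraries differed in direction. At the weaker members it was 63.9% and 53.2% at 4 dpi and 55.6% and 37.2% at 2 dpi. At the stronger members it was 57.7% and 55.4% at 4 dpi and 57.1% and 41.7% at 2 dpi. Only 4 dpi replicate 1, the library that stood apart, was higher at the weaker members. Of the 137 regions with H3K18la in all 4 libraries, 106 also had H3K27ac in all 4.

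H3K27me3 was called in all 4 libraries at 193 gained regions (18.8%, against 12.2% of all H3K4me3 regions), in both 4 dpi libraries at 219 (21.3%, against 14.3%) and in both 2 dpi libraries at 202 (19.7%, against 12.7%). It was gained at 12 regions (1.17%, against 0.813%) and lost at 4 (0.390%, against 0.165%), and no library had it at 771 (75.1%, against 82.7%). Of the 219 regions with the repressive mark in both 4 dpi libraries, 193 thus had it in both 2 dpi libraries too. The regions with H3K27me3 in all 4 libraries were wider (median 2315 bp) and farther from older H3K4me3 (median 26.9 kb) than the 291 with H3K27ac in all 4 libraries (2009 bp and 9.48 kb). Only 3 regions had both H3K27ac and H3K27me3 in all 4 libraries. The H3K27me3 share grew with distance from older H3K4me3: under 1 kb it was 12.9% in both 4 dpi libraries and 10.9% and 9.90% at 2 dpi, while beyond 100 kb it was 34.4% in both 4 dpi libraries and 39.1% and 32.8% at 2 dpi. H3K27ac ran the other way, with 69.3% and 65.3% at 4 dpi and 77.2% and 52.5% at 2 dpi under 1 kb, and 51.6% and 39.1% at 4 dpi and 39.1% and 26.6% at 2 dpi beyond 100 kb. The H3K27me3 peaks that met gained regions had median percentiles of 82.1 and 78.7 at 4 dpi and 82.3 and 79.6 at 2 dpi, close to those at all H3K4me3 regions (79.8 and 77.7 at 4 dpi, 76.7 and 77.0 at 2 dpi).

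The widest gained regions formed one such domain. The 4 widest, of 10160, 10148, 7245 and 6488 bp, all lay on chromosome 8 between 124269149 and 124350559, a span of 81.4 kb. H3K27me3 covered 95.6% and 96.4% of this span at 4 dpi and 100% and 94.1% at 2 dpi, and its strongest peak in each library stood at or above percentile 99.2 of the list. H3K4me3 covered 65.5% of it in 4 dpi replicate 1 and 31.0% in replicate 2, against 3.49% and 1.75% at 2 dpi, where 2 and 1 short peaks lay between the gained regions. H3K27ac was also called in the span, over 39.1% and 9.40% of it at 4 dpi and 22.2% and 3.78% at 2 dpi, with its strongest peaks at percentiles 63.4 and 48.4 at 4 dpi and 80.1 and 57.2 at 2 dpi. H3K18la had 0 peaks there in each of its 4 libraries. The fifth widest region had no H3K27me3 peak in any library and lay on chromosome 14 from 20874495 to 20880923 (6429 bp), with H3K18la at percentiles 94.6 and 95.8 at 4 dpi and 94.9 and 92.7 at 2 dpi. On chromosome 8 the breadth of the H3K4me3 rested largely on replicate 1, since the region from 124269149 to 124279296 was called over 10148 bp at percentile 62.9 there and over 2265 bp at percentile 2.61 in replicate 2. These percentiles are of total signal, which grows with width. By maximum signal the 4 regions stood at percentiles 10.4 to 15.2 in replicate 1 and 0.575 to 7.98 in replicate 2.

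**Figure D4:**
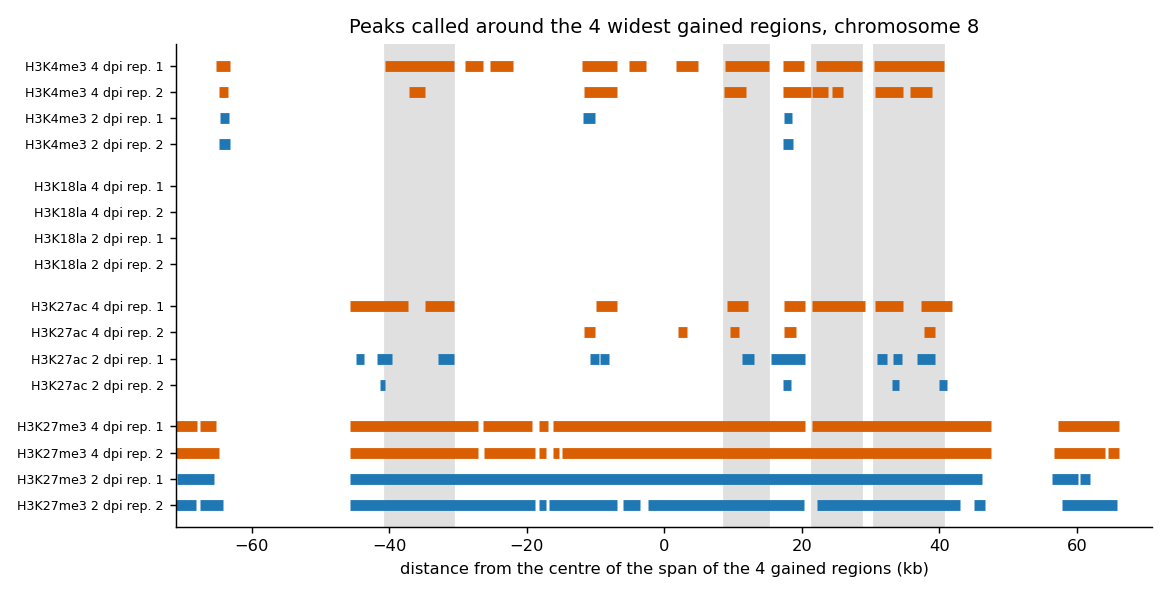
Peaks of all 16 libraries (rows; orange 4 dpi, blue 2 dpi) along a stretch of chromosome 8, by distance in kb from the centre of the span of the 4 widest gained H3K4me3 regions (grey). H3K27me3 covers 94.1% to 100% of the span at both time points, H3K4me3 65.5% and 31.0% of it at 4 dpi and under 4% at 2 dpi, H3K27ac 39.1% and 9.40% at 4 dpi and 22.2% and 3.78% at 2 dpi, and H3K18la is not called.

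Counting a mark as present when both libraries of a time point had a peak, the gained regions fell into a few combinations. At 4 dpi 358 had none of the 3 other marks (34.9%, against 14.7% of all H3K4me3 regions), 281 had H3K27ac alone (27.4%, against 37.3%), 185 had H3K27me3 alone (18.03%, against 9.60%) and 165 had H3K18la with H3K27ac (16.1%, against 33.2%). At 2 dpi, before H3K4me3 was called there, 432 had none (42.1%, against 19.4%), 237 had H3K27ac alone (23.1%, against 32.5%), 191 had H3K27me3 alone (18.6%, against 9.69%) and 117 had H3K18la with H3K27ac (11.4%, against 32.5%). H3K18la without H3K27ac or H3K27me3 was found at 3 regions at 4 dpi and 38 at 2 dpi (0.292% and 3.70%, against 0.443% and 2.88% of all H3K4me3 regions). H3K27ac with H3K27me3 but no H3K18la was found at 21 at 4 dpi and 5 at 2 dpi (2.05% and 0.487%, against 2.63% and 1.44%). Both combinations thus moved in the same direction over all H3K4me3 regions. In total 90 gained regions (8.77%) had no peak in any of the 12 libraries of the other marks, against 3.25% of all H3K4me3 regions. These 90 were narrower, with a median width of 1715 bp, and their median H3K4me3 percentiles were 18.5 and 9.47.

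To measure changes in amount where a mark was called throughout, each other mark was tested over its own regions with a peak in all 4 libraries. Signal summed over the region was ranked within each library and turned into a normal score, the shift was the 4 dpi minus 2 dpi score, and limma tested it with Benjamini-Hochberg adjustment over all regions of the mark. At gained H3K4me3 regions H3K18la and H3K27ac lay toward higher scores at 4 dpi and H3K27me3 did not. The median shift of the 144 H3K18la regions meeting a gained region was 0.22, against 0.00 over all 9325 tested, and 67.4% were positive, against 50.1%. The 362 H3K27ac regions had a median of 0.15, against -0.07 over all 13494, and 59.1% were positive, against 44.7%. The 202 H3K27me3 regions had a median of -0.03, the same as over all 7515, with 40.6% positive against 44.0%.

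Lost regions stood opposite for H3K18la: the 101 H3K18la regions at lost H3K4me3 regions had a median shift of -0.25, with 20.8% positive, and the 4405 at shared regions had a median of 0.01. For H3K27ac the median was -0.05 at 132 regions of lost H3K4me3 and -0.15 at 9440 of shared H3K4me3. For H3K27me3 it was -0.04 at lost and -0.05 at shared regions. Without H3K27ac 4 dpi replicate 1 the H3K27ac median was 0.14 at gained regions and -0.01 over all. These medians describe the lists and carry no test of their own.

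**Figure D5:**
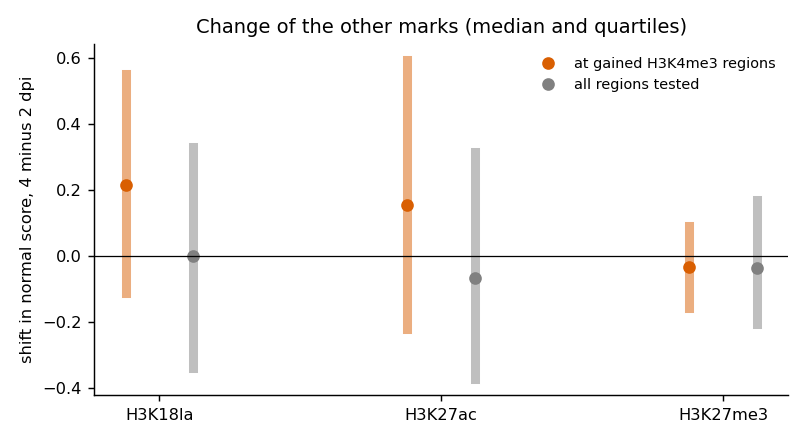
Shift in normal score of total signal, 4 minus 2 dpi (y axis), for regions of H3K18la, H3K27ac and H3K27me3 called in all 4 libraries of the mark. Orange points and bars are medians and quartiles of regions that meet a gained H3K4me3 region, and grey ones those of all regions tested. The orange medians of H3K18la (0.22) and H3K27ac (0.15) lie above the grey ones, and those of H3K27me3 coincide at -0.03.

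At an adjusted p under 0.05, 2 of the 144 H3K18la regions at gained H3K4me3 rose (over all H3K18la regions 0.0429% rose) and 0 fell (0.0751% fell). Of the H3K27ac regions 5 of 362 rose (0.178% of all) and 0 fell (0.00741%), and of the H3K27me3 regions 1 of 202 rose (0.892%) and 0 fell (0.0532%). At an unadjusted p under 0.05 by limma, 28 H3K18la regions were higher and 2 lower at 4 dpi (19.4% and 1.39%, against 7.15% and 7.61% of all). For H3K27ac 58 were higher and 11 lower (16.02% and 3.04%, against 8.29% and 5.68%), and for H3K27me3 18 were higher and 15 lower (8.91% and 7.43%, against 9.12% and 6.23%). Of the 132 H3K27ac regions at lost H3K4me3, 20 were higher and 15 lower, and at the adjusted p 2 rose and 0 fell. Frequent higher H3K27ac was thus not particular to gained regions, while lower H3K27ac was rarer there than at lost regions. The adjusted calls depended on the measure: with maximum signal or mean signal per called base in place of total signal, 0 regions at gained H3K4me3 passed for any of the 3 marks. They also depended on single libraries. For H3K18la, 0 regions at gained H3K4me3 passed without 2 dpi replicate 2 or without 4 dpi replicate 1, and 4 rose and 1 fell without 4 dpi replicate 2. For H3K27ac, 15 rose and 0 fell without 2 dpi replicate 1, and 9 rose and 0 fell without 2 dpi replicate 2. Over all H3K27ac regions 24 rose and 1 fell with all libraries. Falls outnumbered rises among these calls without 4 dpi replicate 1, the library that stood apart. Without 4 dpi replicate 2 rises only slightly outnumbered falls, so that the predominance of rises needed both 4 dpi libraries. At gained H3K4me3 rises and falls were equal in number without 4 dpi replicate 1, and all calls were rises without 4 dpi replicate 2. For H3K27me3, 0 passed without 4 dpi replicate 2, 2 rose and 0 fell without 4 dpi replicate 1, and 2 rose and 1 fell without 2 dpi replicate 2. Replicates are numbered by their titles, and the deposited lists carry the opposite numbers for H3K27me3 at 4 dpi, under which its values without 4 dpi replicate 1 and 2 would change places.

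Both H3K18la and H3K27ac rose at 2 gained H3K4me3 regions. One lay on chromosome 9 from 40235088 to 40238469, at H3K4me3 percentiles 40.2 and 36.2 at 4 dpi and 1.69 kb from an older peak. The H3K18la region over it (40231151 to 40238402) stood at percentiles 99.4 and 99.1 of the tested regions at 4 dpi, against 89.6 and 88.3 at 2 dpi, a shift of 1.23 (SE 0.13, limma adjusted p = 0.00423). The H3K27ac region (40228808 to 40241897) stood at percentiles 97.7 and 98.5 at 4 dpi, against 89.9 and 89.4 at 2 dpi (shift 0.83, SE 0.15, limma adjusted p = 0.0388). In both marks the 4 dpi libraries lay above the 2 dpi libraries without overlap.

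The other lay on chromosome 8 from 122870845 to 122872414, a weak H3K4me3 region at percentiles 10.1 and 15.2. H3K18la there (122864327 to 122876707) was at percentiles 99.8 and 99.6 at 4 dpi and 95.4 and 98.4 at 2 dpi (shift 0.83, SE 0.14, limma adjusted p = 0.0480). H3K27ac was called over 38.3 kb (122854903 to 122893226) and was at percentiles 98.8 and 98.5 at 4 dpi and 92.1 and 80.1 at 2 dpi (shift 1.08, SE 0.18, limma adjusted p = 0.0381). The H3K27ac shift reversed to -0.39 with mean signal per called base (limma adjusted p = 0.884) and was 0.90 with maximum signal (limma adjusted p = 0.426).

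H3K27ac alone rose at 3 further H3K27ac regions. The region on chromosome 4 from 9639796 to 9659819 held 2 gained H3K4me3 regions, at 9641649 to 9644666 and 9655998 to 9658630, and was at percentiles 93.8 and 90.9 at 4 dpi, against 49.3 and 45.3 at 2 dpi (shift 1.503, SE 0.26, limma adjusted p = 0.0381). The one on chromosome 6 from 124868740 to 124882705, over the gained H3K4me3 region at 124880452 to 124881485, was at 85.3 and 91.5 at 4 dpi and 35.3 and 23.3 at 2 dpi (shift 1.76, SE 0.31, limma adjusted p = 0.0381).  On chromosome 3 from 105720023 to 105734610, over the gained region at 105722140 to 105724507, H3K27ac was at 84.7 and 80.4 at 4 dpi and 18.8 and 3.23 at 2 dpi, the largest shift of the 5 H3K27ac regions (2.31, SE 0.41, limma adjusted p = 0.0381). In these 3 regions H3K27ac stood in the lower part or the middle of its tested regions at 2 dpi and above percentile 80 at 4 dpi. Without H3K27ac 4 dpi replicate 1 the shifts on chromosomes 3, 4, 6, 8 and 9 were 2.00, 1.68, 0.50, 0.95 and 0.98. With median-scaled log2 signal the region on chromosome 9 did not pass (limma adjusted p = 0.103), while those on chromosomes 3, 4, 6 and 8 did. Which of the 5 regions passed thus differed between settings, and none passed in every setting.

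H3K27me3 rose at 1 region that met gained H3K4me3, on chromosome 2 from 157337094 to 157360845, where it was at percentiles 79.7 and 86.7 at 4 dpi, against 47.6 and 39.6 at 2 dpi (shift 1.133, SE 0.15, limma adjusted p = 0.0234). The gained H3K4me3 region inside it (157341926 to 157343784) was among the weak ones, at percentiles 4.33 and 3.43, and lay 41.7 kb from older H3K4me3. This shift did not pass without 4 dpi replicate 2 (0.83).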

How the data were processed

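CUT&Tag peak lists of 16 libraries (4 marks, 2 libraries per mark at 4 dpi and 2 at 2 dpi) were used. The submitters' processing notes name Trim Galore 0.6.6 for trimming, Bowtie2 2.4.4 for alignment, SAMtools 1.13, bedtools 2.30 and SEACR 1.3, with which the authors called peaks per library. The deposited signal is the sum and the maximum of fragment coverage over each peak, not normalized between libraries by the authors, so only ranks within a list were compared, apart from median-scaled log2 signal as an alternative. A list keeps only peaks above its own threshold, so absence means below that threshold.

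Coordinates are those of GRCm39, which the labels give, whereas the study's methods name mm10 for alignment. In each of the 16 lists some peaks, 255 in all, end beyond the GRCm38 chromosome ends. With an annotation of GRCm38 only, no coordinate was converted, and the planned gene names, gene lists, cell type markers and sequences were not used here. Peaks on unplaced contigs and the mitochondrial genome were left out, and no blacklist filter was applied here. The study's methods report that the authors removed peaks on blacklist regions. Whether the deposited lists had been filtered in this way is not stated. No 2 lists were identical.

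Merging, distances and exact permutation tests were run in Python 3.11.15 with pandas 2.3.3 and SciPy 1.17.1, and rank-based normal scores were tested with limma 3.58.1 under R 4.3.3 (trended, robust variance, Benjamini-Hochberg adjustment, adjusted p under 0.05), after the limma step had been tested on simulated data. Alternatives were stricter peaks (lowest 25% of each list removed), lists of equal length, merging within 1 kb, overlap of 50% of a region or a window of 1 kb, other signal measures and scales, a filter on low values, a replicate block and leaving out each library. The gained regions and what to test at them were chosen with earlier results of these data known. Regions named are the 10 strongest, the 5 widest, the 5 farthest and 5 nearest, those meeting a limma call, the strongest that meet a gained region of another mark, and those at the edges of the rule. Regions with a mark lost and the groups of 4 were added after their values were seen.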

Additional observations from a re-analysis of the deposited data

How the results depend on the processing

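The number of gained regions was 1026 and ranged over 1298 to 2502 when a library was left out, which removes a condition of the rule and can only raise the number. It was 802 with stricter peaks, of which 135 met regions of the original set. The mean of the median widths was 1675 bp and became 2113 bp with stricter peaks. The mean of the median distances was 15102 bp, and was 24421 bp with stricter peaks, 18602 bp with peaks within 1 kb merged, 19109 bp to regions of both 2 dpi lists, and 13380 to 18002 bp with a library left out. The difference in H3K18la share of -0.19 points reversed to 1.66 with an overlap of 50% of the region, 0.39 with stricter peaks and 4.14 with lists of equal length, and ranged over -6.58 to 6.19 with a library left out. H3K27ac (1.22 to 18.1 points) and H3K27me3 (0.44 to 2.19 points) kept their sign in all 9 alternatives each. With lists of equal length these differences shrank to 3.22 points for H3K27ac and 0.54 points for H3K27me3. The cause was not tested.

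The limma calls were the least stable. H3K18la calls numbered 11, with 0 by maximum signal, 0 by mean signal per called base, 113 by median-scaled log2 signal and 0 to 367 with a library left out. At gained regions they numbered 2, then 0, 0, 4 and 0 to 5. H3K27ac calls numbered 25, with 0 by maximum signal, 0 by mean signal, 68 by log2 signal, 47 without the lowest 25% and 59 to 284 with a library left out. At gained regions these were 5, then 0, 0, 8 by log2 signal and 2 to 15 with a library left out. Without 4 dpi replicate 1 the direction of the H3K27ac calls turned, with 22 that rose and 45 that fell. H3K27me3 calls numbered 71, with 4 by maximum signal, 0 by mean signal, 110 without the lowest 25% and 2 to 487 with a library left out. At gained regions these were 1, then 0, 0 and 0 to 3 with a library left out. Where leaving out a library left 1 at a time point, limma took its variance from the other pair. The H3K27ac shift on chromosome 8 from 122854903 reversed to -0.39 by mean signal per called base. The median shifts held better in direction than in size. In all 9 alternatives for each mark the median at gained regions exceeded that over all regions for H3K18la (0.06 to 0.26, against -0.02 to 0.03) and H3K27ac (0.08 to 0.26, against -0.09 to 0.02), as it did in 7 of 9 for H3K27me3. By mean signal per called base 54.2% of H3K18la regions at gained regions were positive, against 49.9% over all. For H3K27ac at the stronger members the median was -0.02 by maximum signal and -0.03 by mean signal. At the weaker members it was 0.22 and 0.18.

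Replicate numbers did not pair the libraries: deviations of same-numbered libraries correlated at -0.06 for H3K18la, 0.09 for H3K27ac and -0.05 for H3K27me3. With the replicate block 218 H3K18la, 581 H3K27ac and 208 H3K27me3 regions were called, of which 7, 35 and 2 met gained regions. For H3K27me3 the block and the correlation follow the numbers of the titles, and the opposite numbering at 4 dpi was not run. Depth is unknown, and at 921 gained regions the signal in 4 dpi replicate 2 was under 2 times that of its weakest listed peak, which limits how firmly absence at 2 dpi can be read.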
